A study of Mus musculus with 20 samples.

Results

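The far side of the Oct4 region is a stretch of 971 kb of mouse chromosome 17 (mm9, with fragment starts from 34428607 to 35395228) that lies left of the gene Pou5f1 in a 5C map. 5C, chromosome conformation capture carbon copy, counts ligations between pairs of restriction fragments, each read by a forward and a reverse primer. A pair of fragments was taken when both primers belonged to the Oct4 region, both fragments started left of a set border, and the mean over 10 libraries was at least 10 counts. That held for 6241 pairs, which are 33.9% of the 18434 kept pairs of the region, out of 75889 kept within all 7 regions. The choice used no difference between cell types. Of 6885 possible far-side pairs, 6811 had a count and 570 of these were left out, the highest with a mean of 9.9 counts against 10.0 for the lowest member. The border lies between the last fragment inside, at 35395228, and the first fragment beyond, at 35408459.

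Each of 5 groups of mouse cells had 2 5C libraries and 2 RNA libraries. V6.5 embryonic stem (ES) cells, a male line of the cross 129SvJae x C57BL/6, grew in serum with LIF, or without serum in 2i medium, which holds LIF and the kinase inhibitors CHIR99021 and PD0325901. Primary neural progenitor cells (NPC) came from whole brains of newborn 129SvJae x C57BL/6 mice that carry Sox2-eGFP, and were expanded as neurospheres and then as an attached layer. Induced pluripotent stem (iPS) cells had been made from such NPC and were kept in serum with LIF or moved to 2i. Stem cells had a feeder layer of fibroblasts first and gelatin later. Fixation was with 1% formaldehyde and digestion with HindIII. The labels do not say that the replicates are separate cultures, nor how many iPS clones or mice were used, so the spread between libraries may be technical.

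The stretch covers the class III part of the major histocompatibility complex and the edge of the class II part. Class II genes encode proteins that present peptides on immune cells, and class III is a dense row of short genes for complement factors, HSP70 chaperones, tumour necrosis factor relatives, and housekeeping proteins of RNA, lipid and protein handling. Genes that are read at the same time often lie in a shared active compartment, and 5C counts of distant fragments report how often such segments meet. In the RefSeq gene order of GRCm38, the 16 genes before Pbx2 run from H2-Aa through butyrophilin-like genes to Notch4 and Gpsm3, and 76 genes run from Pbx2 to Ddx39b. Only 28 far-side gene symbols stood in the expression table that the authors deposited with positions, and 27 of them matched RefSeq.

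The promoters of 4 genes that start on fragments of the pairs named below are printed to show what those fragments carry. They are the 250 bases before the start from RefSeq (GRCm38.p6, 5′ to 3′ on the gene's strand), with HindIII sites (AAGCTT) and GC boxes (GGGCGG or CCGCCC, both strands, overlaps counted) in capitals.
Slc44a4 (chr17:34914216-34914465, plus strand): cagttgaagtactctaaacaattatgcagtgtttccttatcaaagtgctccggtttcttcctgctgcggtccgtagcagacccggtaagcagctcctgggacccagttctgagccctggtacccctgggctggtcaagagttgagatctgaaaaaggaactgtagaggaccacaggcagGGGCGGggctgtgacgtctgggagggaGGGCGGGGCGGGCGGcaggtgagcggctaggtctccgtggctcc
Abhd16a (chr17:35089041-35089290, plus strand): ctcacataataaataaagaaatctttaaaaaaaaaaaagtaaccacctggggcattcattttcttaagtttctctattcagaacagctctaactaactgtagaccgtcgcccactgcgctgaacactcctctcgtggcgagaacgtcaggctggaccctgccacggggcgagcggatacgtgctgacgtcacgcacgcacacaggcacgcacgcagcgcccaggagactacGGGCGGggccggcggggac
D17H6S56E-5 (chr17:35000747-35000996, minus strand): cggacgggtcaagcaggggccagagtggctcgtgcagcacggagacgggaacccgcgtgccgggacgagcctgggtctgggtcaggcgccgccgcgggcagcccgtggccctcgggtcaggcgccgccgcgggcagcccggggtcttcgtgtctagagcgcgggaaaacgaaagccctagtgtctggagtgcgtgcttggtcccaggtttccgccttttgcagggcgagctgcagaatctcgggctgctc
Bat1a, named Ddx39b in RefSeq (chr17:35241496-35241745, plus strand): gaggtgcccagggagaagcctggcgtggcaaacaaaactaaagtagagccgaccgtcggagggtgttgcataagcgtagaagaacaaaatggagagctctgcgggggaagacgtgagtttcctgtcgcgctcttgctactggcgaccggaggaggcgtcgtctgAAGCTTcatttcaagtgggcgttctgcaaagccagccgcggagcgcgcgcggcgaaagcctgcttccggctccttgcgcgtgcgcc
The Slc44a4 promoter held 4 GC boxes, that of Abhd16a held 1 and the others none. Of 32851 RefSeq promoters of this length, 32.7% held a GC box. Bat1a was the 1 gene here with a HindIII site, which started 86 bases before the RefSeq start and was found in 6.22% of all promoters. A pair of adjacent fragments, 35378609 to 35378802 and 35378804 to 35379271 in mm9, each carried the start of a Bat1a model. None of the 4 held a CCAAT box (CCAAT or ATTGG), which 33.8% of all promoters did. The CpG count was 11 for Slc44a4, 20 for Abhd16a, 25 for Bat1a and 28 for D17H6S56E-5, against a median of 6 over all promoters.

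The 10 5C libraries held between 10508118 and 26533530 counts, of which 80.8% to 92.0% joined fragments of the same region. Far-side pairs took 1759498 to 4716617 counts, and both ES libraries in serum were the deepest. At most 0.497% of the members were at 0 in a library. The choice of 166 primers (81 forward, 85 reverse) gave members that lay 0.332 to 971 kb apart, with a median distance of 275 kb and a median of the mean count of 92.8. That median was 704.6 for the 687 members under 50 kb apart, 206.7 for the 1696 at 50 to 200 kb, 74.3 for the 2373 at 200 to 500 kb and 31.3 for the 1485 beyond. Over the 6241 members, Spearman's rho of 2 libraries of a group was 0.913 to 0.958. ES libraries in serum had 0.838 to 0.914 with libraries of other groups, and the other groups had 0.854 to 0.955 with each other. The members share fragments and depth, so these values are a description.

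A single pair held much of the signal. Oct4_FOR_24 with Oct4_REV_5 (34532082 to 34532748 with 34442859 to 34444375, 88.8 kb apart) had a mean of 695070 counts, with 338214 in the lowest and 1740219 in the highest library. It made up 27.2% of all far-side counts, while the next highest pair had a mean of 14550. Whether it is a true contact was not tested. Normalised counts here are counts set against the total of the same library, region and distance stratum, and this pair is 68.6% of its stratum (57.5 to 88.8 kb). Changes were therefore also computed against the median pair of each stratum. Another setting, fragment balancing, in addition removed from each fragment its own median shift in each library, so that only contacts that departed from both fragments' general shift remained. Both settings were chosen after the data were seen.

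The 4 fragments with the most called pairs over the comparisons were low in both ES libraries in serum and at a common higher level in every other library. The fragment of Oct4_REV_136 (35045699 to 35053032) carries the start of Slc44a4, which encodes a choline transporter-like membrane protein. Its far-side normalised counts summed to 6915 and 8716 in ES cells, 32428 and 35754 in ES cells in 2i, 28713 and 32495 in NPC, 36979 and 37320 in iPS cells, and 30080 and 28178 in iPS cells in 2i. No other library came near the ES level. The fragment of Oct4_FOR_78 (34810030 to 34816252) summed to 2492 and 3262 in ES cells and to 8994 to 13835 elsewhere. That of Oct4_FOR_8 (34456482 to 34459631) summed to 1786 and 1867 against 8176 to 11869. That of Oct4_FOR_63 (34729843 to 34731008), inside the homeobox gene Pbx2, summed to 6182 and 8177 against 14970 to 20882.

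**Figure D1:**
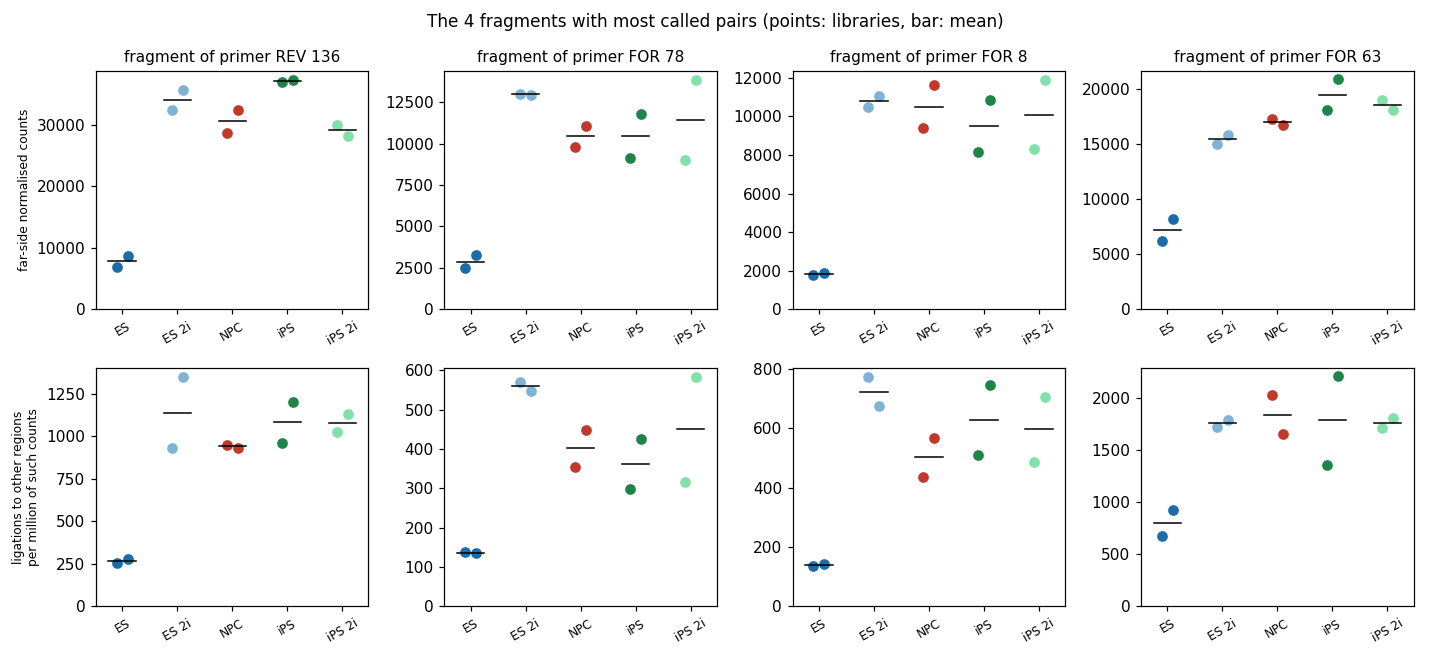
Summed far-side normalised counts (top row, y axis) and ligations with primers of other regions, in CPM, that is scaled to each library's total of such ligations (bottom row), of the 4 fragments with most called pairs, by group (x axis); points are libraries and bars are means of 2. Both ES libraries in serum are the lowest in all 8 panels, and the fragment of Oct4_REV_136 has 258 and 277 CPM between regions in ES cells against at least 931 elsewhere.

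The same 4 fragments were low in ES cells in ligations to primers of the other regions, which the choice of members did not use. The 4 were, however, picked by calls in these same libraries, mostly in comparisons with ES cells in serum. Ligations between regions come from the same primers and libraries, so they are a description and not separate support. In CPM, counts scaled to each library's total of ligations between regions, the fragment of Oct4_REV_136 had 258 and 277 in ES cells and 931 to 1347 in the other 8 libraries. That of Oct4_FOR_8 had 137 and 141 against 437 to 771. The right neighbour of Oct4_REV_136, Oct4_FOR_137, did not share the pattern, with 1687 and 1408 in ES cells and 1300 to 2419 elsewhere. Its left neighbour Oct4_FOR_135 was at 329 and 297 in ES cells and at 282 to 517 elsewhere, and its far-side sums were lowest in ES cells too but by less, 7416 and 7634 against 8875 to 11675. ES cells in 2i are the same line and were at the level of the other groups. Why these fragments were low in ES cells was not tested, and an effect shared by both ES libraries in serum cannot be told apart from one of the cells.

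NPC against ES cells asked how the far side differs between a neural and a pluripotent cell. In NPC, a tile in the middle of the stretch met most tiles less often, some near the left end among them. The tile of Agpat1 and Fkbpl met those of Hspa1a, Csnk2b and Bat1a more often. Of 6241 pairs, 800 were higher and 581 lower in NPC, 22.1% in all, against 18.0% of all 75889 pairs (edgeR quasi-likelihood test, adjusted p under 0.05). Summed into 210 pairs of 50 kb tiles, 52 were higher and 57 lower, 51.9%, against 44.5% of all 2216 tile pairs. The count of higher pairs was 589 without the 4 fragments and 168 with fragment balancing, while the count of lower pairs was 581 and 396. The split moved with the scaling: with TMM scaling and no distance strata, 587 pairs were higher and 797 lower, and with stratum medians 679 and 634. For tile pairs it was 30 higher and 86 lower with TMM scaling, 30 and 75 with stratum medians, and 37 and 71 with balancing. Over all regions, TMM scaling called 14912 pairs and 1010 tile pairs, stratum medians 13461 and 912, and balancing 5577 and 996. The median log2 fold change of the 6241 pairs was 0.13, and 0.02 with stratum medians, -0.09 with TMM scaling and -0.08 with balancing. Without ES replicate 1 or ES replicate 2, called pairs numbered 750 and 630. Called pairs were 37.6% of the members under 50 kb, 23.6% at 50 to 200 kb, 21.5% at 200 to 500 kb and 14.3% beyond. The median of the mean count fell over these distances from 704.6 to 31.3, and its part in the shares was not tested. No shares of all regions at these distances are given, so whether this is particular to the far side is not known.

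In the tile map, a tile in the middle of the stretch was lower in NPC with most tiles, some near the left end among them. The tile pair of 34.50 and 34.85 Mb (tiles are named by their left end) fell most. Its normalised counts were 4341 and 4717 in ES cells, 1378 and 1390 in ES cells in 2i, 881 and 1166 in NPC, 2347 and 1544 in iPS cells, and 1821 and 1869 in iPS cells in 2i. Both ES libraries in serum stood above the other 8. The log2 fold change in NPC was -2.15 (SE 0.19, adjusted p from edgeR = 1.15e-05), and -0.85 with fragment balancing. It rests on 4 pairs. The tile pair of 34.40 and 34.85 Mb went from 1623 and 1678 in ES cells to 412 and 705 in NPC, and that of 34.50 and 34.60 Mb from 9712 and 8029 to 3263 and 3139, with log2 fold changes of -1.57 and -1.47. Of the 20 tile pairs of each tile at the left end, 6 were lower and 3 higher in NPC at 34.40 Mb. At 34.45 Mb, 4 were lower and 3 higher, and at 34.50 Mb 12 and 1. Of the 20 tile pairs of the tile at 34.85 Mb, 18 were lower and 1 higher in NPC. That tile holds 2 fragments and, in the RefSeq order, lies between Fkbpl and Stk19, where genes for tenascin X, complement C4 and steroid 21-hydroxylase stand.

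**Figure D2:**
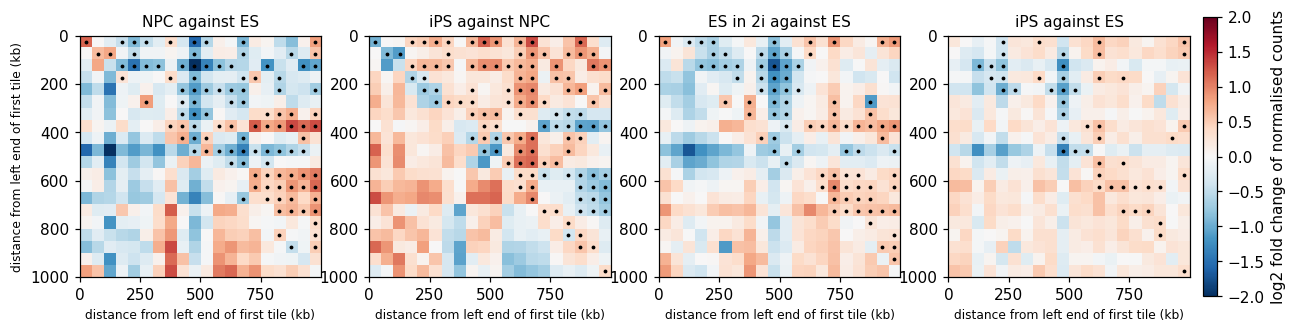
Log2 fold change of normalised counts (colour, -2 to 2) for each pair of 50 kb tiles in 4 comparisons; both axes give the distance in kb from the left end of the first tile, and dots in the upper right triangle mark tile pairs past the adjusted p of 0.05. In NPC against ES cells the tile at 450 kb is lower with 18 of 20 tiles and the tile at 350 kb is higher with 12 of 20.

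Contacts among gene-bearing tiles were higher in NPC. The tile at 34.75 Mb overlaps Agpat1, Ppt2 and Fkbpl, and 12 of its 20 tile pairs were higher and 1 lower. With the tile at 35.25 Mb, which holds Csnk2b, Gpank1, D17H6S53E and Bat3 (Bag6 in RefSeq), it had 1154 and 1267 normalised counts in ES cells and 2793 and 3274 in NPC. ES cells in 2i had 1978 and 1753, iPS cells 1471 and 1452, and iPS cells in 2i 2091 and 1764. NPC were above all other groups. The log2 fold change in NPC against ES cells was 1.33 (SE 0.13, adjusted p from edgeR = 2.40e-05) over 25 pairs, and 0.60 with fragment balancing. With the tile at 35.35 Mb, which holds Nfkbil1 and Bat1a, the values were 1104 and 1126 in ES cells and 2720 and 2794 in NPC, a log2 fold change of 1.31, or 0.41 with balancing. With the tile at 35.10 Mb, which holds Hspa1a and Lsm2, they were 1973 and 2092 in ES cells and 5052 and 4372 in NPC, 1.21, or 0.22 with balancing.

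**Figure D3:**
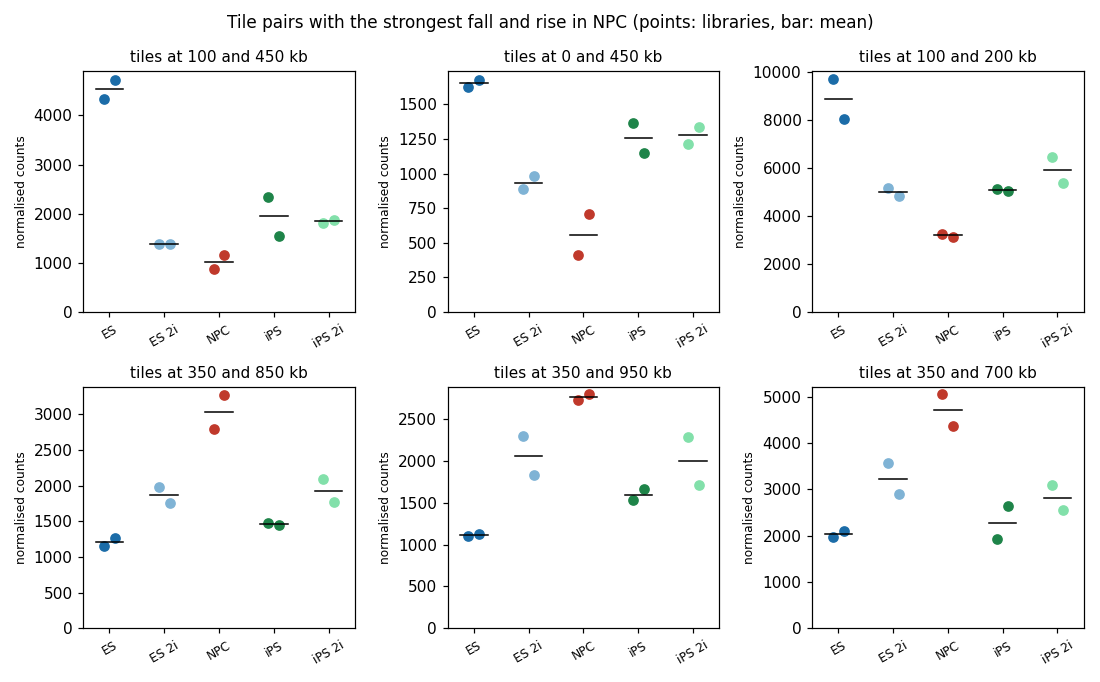
Normalised counts (y axis, from 0) of the 3 tile pairs with the largest fall (top) and the 3 with the largest rise (bottom) in NPC against ES cells, by group (x axis); points are libraries, bars are means of 2, and tiles are named by their distance from the left end of the first tile. In the top row both ES libraries in serum lie above all others (4341 and 4717 at 100 and 450 kb), and in the bottom row both NPC libraries do.

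A split of the tiles by listed genes was made after the values were seen and is a description. Of the 20 tiles, 10 overlap a listed gene model. The tiles without one are not free of genes, since class II, butyrophilin-like and C4 genes stand there in RefSeq. Among tile pairs at least 2 tiles apart, 31 of the 38 with a listed gene in both tiles were higher in NPC and 0 lower, with a median log2 fold change of 0.58. Of the 38 with none in either tile, 2 were higher and 20 lower, with a median of -0.44, and of the 95 with a gene in 1 tile, 9 were higher and 32 lower. The counts for both and for none were 13 higher and 3 lower against 0 and 29 with TMM scaling, 18 and 0 against 0 and 26 with stratum medians, and 17 and 6 against 2 and 11 with fragment balancing. Relative to the mean over libraries, the median tile pair with a gene in both tiles stood at 0.803 and 0.807 in ES cells, 1.11 and 1.03 in ES cells in 2i, 1.19 and 1.17 in NPC, 0.929 and 0.976 in iPS cells, and 1.07 and 0.943 in iPS cells in 2i. The ES libraries in serum were the lowest and the NPC libraries the highest. For tile pairs with no listed gene the order was turned, with 1.19 and 1.17 in ES cells in serum and 0.801 and 0.893 in NPC.

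Among single pairs, the strongest rise in NPC lay outside the 4 fragments. Oct4_FOR_85 with Oct4_REV_104 (34837848 to 34841748 with 34915807 to 34919012, 77.6 kb apart) had 1529 and 2747 normalised counts in NPC. It had 81.7 and 71.1 in ES cells, 141 and 161 in ES cells in 2i, 83.3 and 161 in iPS cells, and 79.1 and 146 in iPS cells in 2i. The 2 NPC libraries were far above the other 8, whose highest value was 161. The log2 fold change against ES cells was 4.80 (SE 0.41, adjusted p from edgeR = 1.46e-07), and 3.92 with fragment balancing. Over the 24 members that join the 2 nearest fragments on each side, the log2 fold change was -1.45 to 2.31 with a median of 0.09. Of these, 7 passed, among them the lowest, Oct4_FOR_95 with Oct4_REV_108. Oct4_FOR_85 was also higher in NPC with Oct4_REV_96, Oct4_REV_108 and Oct4_REV_113, by 1.02, 1.58 and 1.48, which passed. With Oct4_REV_93 it was higher by 0.83, which did not pass. Oct4_FOR_82 with Oct4_REV_104 had 0.61 and Oct4_FOR_92 with Oct4_REV_104 had 0.01, and Oct4_FOR_92 with Oct4_REV_113 had 2.31. The RefSeq order holds the copies C4b and C4a in this stretch, with starts 81.0 kb apart in GRCm38, with Tnxa and several pseudogenes, so reads from near-identical sequence may be assigned to either copy there. Its part in this pair was not tested.

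The other 3 named rises in NPC all joined the Slc44a4 fragment of Oct4_REV_136. With Oct4_FOR_73 (34782477 to 34793703, in Fkbpl) it had 4.42 and 6.53 normalised counts in ES cells and 115 and 121 in NPC, a log2 fold change of 4.401 that was 0.36 with balancing and no longer passed (adjusted p from edgeR = 0.656). With Oct4_FOR_210 and Oct4_FOR_208, which lie in Bat1a, the changes were 3.86 and 3.82, and 0.91 and 0.63 with balancing, where neither passed. The 4 named falls joined fragments without a listed gene over 137 to 780 kb. Oct4_FOR_55 with Oct4_REV_79 (34679930 to 34680089 with 34816254 to 34818069) went from 264 and 278 in ES cells to 44.1 and 20.1 in NPC, a log2 fold change of -3.08, or -1.67 with balancing. Oct4_FOR_149 with Oct4_REV_10 went from 69.9 and 93.2 to 10.5 and 7.71. Both still passed with balancing, as did Oct4_FOR_175 with Oct4_REV_5 (-3.21, or -1.84), while Oct4_FOR_24 with Oct4_REV_88 (-3.10, or -0.76) did not.

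The iPS cells were compared with the NPC they were made from. Of the members, 367 pairs were higher and 147 lower in iPS cells, 8.24%, against 6.85% of all pairs. Of the tile pairs, 81 were higher and 36 lower, 55.7%, against 34.3% of all. Stratum medians gave 170 higher and 202 lower pairs and 35 higher and 39 lower tile pairs. Fragment balancing gave 280 and 217 pairs, and 68 and 56 tile pairs. Over all regions, these settings called 4298 and 4169 pairs, and 643 and 943 tile pairs. Pairs under 50 kb were called most often (28.5%), with 147 higher and 49 lower of 687. They also had the highest counts, and no share of all regions at that distance is given. Without NPC replicate 1 or iPS replicate 1, the count of called pairs was 252 and 126, and that of tile pairs 74 and 75.

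Long contacts of the left end were higher in iPS cells. The tile pair of 34.40 and 35.05 Mb joins the end of the stretch to the tile of Slc44a4 and Neu1. It had 598 and 706 normalised counts in NPC, 1706 and 1528 in iPS cells, 1756 and 1608 in iPS cells in 2i, 1507 and 1500 in ES cells in 2i, and 1239 and 1182 in ES cells. NPC alone were low. The log2 fold change was 1.31 (SE 0.13, adjusted p from edgeR = 8.2e-05), and 0.84 with fragment balancing. The tile pair of 34.90 and 35.05 Mb went from 2465 and 1864 in NPC to 5208 and 4465 in iPS cells, a log2 fold change of 1.16. That of 34.40 and 34.85 Mb went from 412 and 705 to 1365 and 1150, 1.18. All 3 still passed with balancing and with stratum medians.

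The 3 named tile pairs that were lower in iPS cells were 2 of adjacent tiles and 1 of the tile at 34.75 Mb. The adjacent tiles of 34.85 and 34.90 Mb had 12326 and 15241 in NPC, 6053 and 6337 in iPS cells, 9665 and 7766 in ES cells, and 7217 to 10646 in the 2i libraries, a log2 fold change of -1.15. Those of 34.45 and 34.50 Mb went from 28633 and 16718 to 9438 and 11549, -1.11, and the NPC libraries lay far apart from each other. The tiles of 34.75 and 35.30 Mb went from 2140 and 2204 to 954 and 1109, -1.07. Of single pairs, Oct4_FOR_85 with Oct4_REV_104, the pair near C4, was lower by a log2 of -4.14, and -3.86 with balancing. Oct4_FOR_95 with Oct4_REV_116 (34862531 to 34865340 with 34946053 to 34952143) had 2345 and 2637 in NPC against 258 and 515 in iPS cells, while ES cells had 1246 and 692. Oct4_FOR_24 with Oct4_REV_7 (log2 -3.14) shares a fragment with the pair of highest count, and Oct4_FOR_65 in Rnf5 with Oct4_REV_172 fell from 528 and 176 to 17.4 and 42.4 (log2 -3.55).

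At the right edge, the start of Bat1a was in closer contact with a neighbour in iPS cells. Bat1a (Ddx39b) encodes an RNA helicase of mRNA export. Oct4_FOR_206 with Oct4_REV_214 (35378609 to 35378802 with 35394340 to 35395226, 16.1 kb apart) had 82.05 and 143 normalised counts in NPC, 1490 and 648 in iPS cells, 455 and 786 in ES cells, 251 and 340 in ES cells in 2i, and 225 and 806 in iPS cells in 2i. NPC were the lowest group. The log2 fold change was 3.25 (SE 0.50, adjusted p from edgeR = 0.000422), and 2.32 with balancing. Oct4_FOR_202 in Nfkbil1, which encodes an NF-kappa-B inhibitor-like protein, also rose with Oct4_REV_214, from 125 and 112 to 816 and 593. Oct4_REV_88 (34844288 to 34844394) had more contact with fragments in Slc44a4 (Oct4_FOR_137, log2 2.80, or 1.32 with balancing) and in Neu1 (Oct4_FOR_141, log2 2.64).

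Against ES cells in the same medium, iPS cells had 384 higher and 67 lower pairs, 7.23%, against 5.23% of all, and 29 higher and 21 lower tile pairs, 23.8%, against 13.8% of all. The higher calls depended on the 4 fragments and on the scaling, and the median log2 fold change of the 6241 pairs was 0.32, 0.04 with stratum medians and -0.06 with balancing. Without the 4 fragments 168 pairs were higher and 67 lower. No pair passed with fragment balancing (639 at an unadjusted p under 0.05), where 0 tile pairs were higher and 23 lower. Over all regions, balancing called 9 of 75889 pairs and 83 of 2216 tile pairs. Stratum medians gave 243 higher and 138 lower pairs, and 0 higher and 31 lower tile pairs. TMM scaling gave 7 higher and 19 lower tile pairs. Over all regions, stratum medians called 3820 pairs and 260 tile pairs, and TMM scaling 364 tile pairs. Called tile pairs fell to 4 without ES replicate 1, 6 without ES replicate 2, 5 without iPS replicate 2 and 26 without iPS replicate 1, and called pairs to 122, 165 and 152 without the first 3 of these.

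Lower contacts of the tile at 34.85 Mb were found under each scaling for its pairs with 34.50 and 34.60 Mb. The tile pair of 34.60 and 34.85 Mb had 4150 and 3264 in ES cells, 1825 and 1675 in iPS cells, 1845 and 1720 in ES cells in 2i, 1699 and 1708 in NPC, and 2187 and 2145 in iPS cells in 2i. Both ES libraries in serum stood above all 8 others. The log2 fold change in iPS cells was -1.08 (SE 0.12, adjusted p from edgeR = 0.000793), and -0.69 with balancing. With 34.50 Mb it was -1.22, and -0.74 with balancing. Within the tile itself, 1 pair went from 12099 and 10761 to 5092 and 3927, which no longer passed with balancing. The 3 named higher tile pairs, those of the tile at 35.00 Mb (C2 and Zbtb12) with 34.40, 34.45 and 34.90 Mb, had log2 fold changes of 0.60 to 0.64 that passed neither with stratum medians nor with balancing. All 4 named higher pairs joined the fragment of Oct4_REV_136, with log2 fold changes of 3.29 to 4.19, none of which passed with balancing. The largest fall among single pairs was that of Oct4_FOR_65 in Rnf5 with Oct4_REV_172, from 201 and 282 to 17.4 and 42.4, a log2 fold change of -3.00 (adjusted p from edgeR = 0.00103, or 0.0805 with balancing).

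The 2i medium was tested in both lines. ES cells in 2i had 593 higher and 426 lower pairs than ES cells in serum, 16.3%, against 12.1% of all, and 48 higher and 38 lower tile pairs, 41.0%, against 32.2% of all. With balancing 8 pairs were higher and 13 lower, and 5 tile pairs higher and 43 lower, and the median log2 fold change of the 6241 pairs went from 0.12 to -0.06. Stratum medians gave 449 higher and 497 lower pairs and 15 higher and 46 lower tile pairs. Over all regions, balancing called 174 pairs and 250 tile pairs, and stratum medians 8799 and 608. This comparison, that with NPC and that with iPS cells share the 2 ES libraries in serum. Without ES replicate 1, ES replicate 2, and ES in 2i replicates 1 and 2, the called pairs were 454, 308, 343 and 613, and the called tile pairs without the first 3 of these were 50, 44 and 48.

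The tile at 34.85 Mb was lower in 2i with 13 of 20 tiles and higher with 0. With 34.50 Mb its log2 fold change was -1.71 (SE 0.18, adjusted p from edgeR = 0.0004), and -0.92 with balancing. With 34.55 Mb it went from 5046 and 5179 to 2066 and 2342, -1.21, and -0.40 with balancing. The tiles of 35.00 and 35.10 Mb, from C2 to Hspa1a and Lsm2, rose from 9249 and 7908 to 17231 and 16077, 0.96, which did not pass with balancing (0.15). Those of 34.75 and 35.35 Mb rose from 1104 and 1126 to 2295 and 1827, 0.89, and 0.29 with balancing. The other 2 named tile pairs, 34.65 with 35.25 Mb (-1.13) and 34.40 with 35.10 Mb (0.89), did not pass with balancing. Of single pairs, Oct4_FOR_49 with Oct4_REV_207 (34641436 to 34655002 with 35378804 to 35379271, 731 kb apart, the latter at a Bat1a start) had 289 and 310 in ES cells and 13.4 to 83.2 in the other 8 libraries. Its log2 fold change in 2i was -3.74 (adjusted p from edgeR = 3.07e-05), and -3.08 with balancing. The fragment of Oct4_REV_108 (34922686 to 34923221) lost contact with Oct4_FOR_27, Oct4_FOR_34 and Oct4_FOR_39, by log2 fold changes of -3.82, -3.63 and -3.51 that did not pass with balancing. The 4 named rises again joined the fragment of Oct4_REV_136, and none passed with balancing, where that with Oct4_FOR_78 was -0.24 instead of 3.99.

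No far-side pair or tile pair passed between iPS cells in 2i and in serum, or between iPS and ES cells in 2i, by edgeR. At an unadjusted p under 0.05 there were 513 and 448 pairs, and 53 and 31 tile pairs. Over all regions 0.0474% of pairs and 1.08% of tile pairs passed in the first of these comparisons and 0.0% and 0.0% in the second. DESeq2 called 38 pairs and 19 tile pairs in the first, and 0 pairs and 2 tile pairs in the second. The count of 0 for tile pairs in the first depended on the model. There edgeR called 10 with TMM scaling, 18 with fragment balancing and 17 with a replicate block, which also called 2 pairs. Over all regions, these settings called 196, 170 and 165 tile pairs. The difference between the lines in the effect of 2i (edgeR interaction term, adjusted p under 0.05) passed for 197 far-side pairs, 3.16%, against 1.97% of all, for 31 tile pairs, 14.8%, against 8.39%, and for 10 RNA models, 35.7%, against 27.3%. In 2i the far-side tile pairs with a listed gene in both tiles had median log2 fold changes of 0.08 in iPS cells against their serum culture and -0.09 against ES cells in 2i. In ES cells, 2i went with 0.43 for the same tile pairs, with 28 of 38 higher and 0 lower, but with fragment balancing 1 was higher and 4 lower.

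Far-side contacts took 55.4% to 63.1% of all within-region Oct4 counts. Far-side contacts over 200 kb took 6.21% and 6.33% in NPC, 7.92% and 7.96% in ES cells, 8.74% and 9.28% in ES cells in 2i, 8.83% and 10.2% in iPS cells, and 8.67% and 9.26% in iPS cells in 2i. Both NPC libraries were below the other 8. The difference was -2.58 percentage points (exact permutation test, two-sided, p = 0.0222, the smallest that 45 arrangements allow, adjusted p = 0.129 over 9 tests). Without the pair of highest count it was -3.39 (exact permutation test, adjusted p = 0.2). Over contacts beyond 20 kb only, the NPC libraries had 10.5% and 10.9% against 10.2% to 13.1% in the others, so the groups overlapped, and the difference was -1.27 points (exact permutation test, adjusted p = 0.433). The far-side share itself was 56.9% ± 1.00 (SD, n = 4) in 2i and 60.3% ± 2.29 (SD, n = 4) in serum over both lines (exact permutation test, p = 0.0286, adjusted p = 0.129), and without the highest pair the difference of -3.42 points became -0.23. No share passed the adjustment. With 45 or 70 arrangements, a single test at its smallest possible p could not pass over 9 tests, so these tests could hardly detect a difference. Contacts across the border to the Pou5f1 side took 7.26% to 10.3%, and NPC did not pass against the others (difference -0.80 points, exact permutation p = 0.378). Over contacts beyond 20 kb only that difference turned to 1.72 points, which did not pass either (exact permutation test, adjusted p = 0.429).

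The authors sorted pairs of bins into classes from the 6 serum and NPC libraries. Per the file headers the bins are 20 kb wide and step by 4 kb, and the deposited coordinates, printed here, are those of the 4 kb steps. In the authors' deposited table, 5526 classified bin pairs lie on the far side. Of these, 743 (13.4%) are NPC only, 277 (5.01%) ES only, 248 (4.49%) iPS only and 112 (2.03%) constitutive. The others are 63 (1.14%) NPC and iPS, 44 (0.796%) ES and iPS, 15 (0.271%) ES and NPC, and 4024 (72.8%) background. Over all 7 regions the authors' deposited table has 14.8% NPC only, 8.08% ES only, 4.48% iPS only, 0.624% NPC and iPS, and 69.2% background. The other shares over all regions in the authors' deposited table are 1.09% constitutive, 1.36% ES and iPS, and 0.396% ES and NPC. Classes were called on these same libraries, so the medians of serum and NPC libraries are given by the sorting. The 4 libraries in 2i were not used in it.

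**Figure D4:**
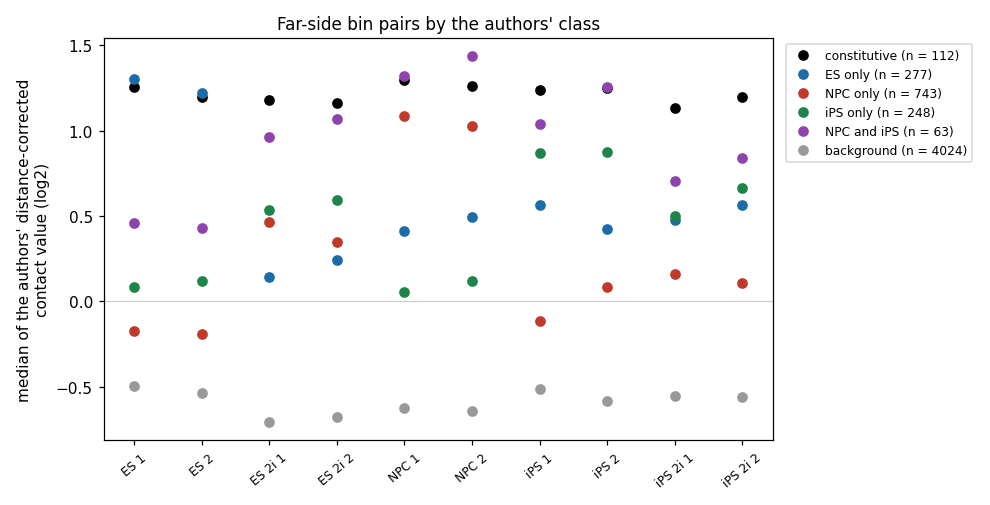
Median of the authors' deposited distance-corrected contact value (log2, y axis) over far-side bin pairs of 6 classes in each of 10 libraries (x axis); n in the legend is the number of bin pairs, and the ES, NPC and iPS libraries set the classes. In ES cells in 2i the ES only class lies at 0.142 and 0.244, below the NPC only class at 0.465 and 0.348.

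In ES cells in 2i, the ES only class had medians of 0.142 and 0.244 in the authors' deposited table, against 1.30 and 1.22 in ES cells in serum and 0.410 and 0.492 in NPC. The NPC only class had 0.465 and 0.348 there, against -0.173 and -0.189 in serum and 1.09 and 1.03 in NPC. ES cells in 2i lay below both ES cells in serum and NPC in the ES only class, and between them in the NPC only class. iPS cells in 2i, also not used in the sorting, had 0.477 and 0.564 in the ES only class of the authors' deposited table. They had 0.158 and 0.107 in the NPC only class. ES cells in serum and NPC are set apart by the sorting, so the distance of other libraries from them is a description. The classes shared by NPC and iPS cells had 0.960 and 1.07 in ES cells in 2i against 0.458 and 0.433 in serum. The largest NPC only cluster of the authors' deposited table has 153 bin pairs and joins 35026392 to 35102391, from Zbtb12 over Slc44a4 and Neu1 to Hspa1b, with 35266392 to 35318391, which holds Bat3. The next has 133 bin pairs and joins Agpat1, Ppt2 and Fkbpl (34746392 to 34798391) with Csnk2b, Gpank1, D17H6S53E and Bat3. The largest ES only cluster of the authors' deposited table has 45 bin pairs and joins 34518392 to 34578391 with 34858392 to 34870391. Its medians were 1.66 and 1.83 in ES cells in serum and 0.0407 and 0.182 in ES cells in 2i. Of the iPS only clusters of the authors' deposited table, those of 45, 42 and 22 bin pairs have an anchor on Slc44a4. The fragment at its start was low in ES cells in serum but not in NPC. The cluster of 45 bin pairs in the authors' deposited table had medians of -0.140 and 0.0706 in ES cells in serum. NPC had 0.0643 and -0.0752 there, and iPS cells 0.728 and 0.845. The largest constitutive cluster of the authors' deposited table has 30 bin pairs at 34834392 to 34858391 with 34914392 to 34938391, where the pair near C4 lies. Its medians in the authors' deposited table were 2.45 and 2.21 in ES cells in serum, 2.63 and 2.81 in NPC, and 2.21 and 1.76 in iPS cells. The bins thus had high values in ES cells too, unlike the single pair.

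RNA of the far-side genes was read in libraries of the same 5 groups. Identity markers followed the labels. Of 3 pluripotency genes with a model (Dppa5a, Pou5f1, Tdh), all were at 0 in NPC and their sum was 3079 to 5329 CPM (here scaled to the assigned reads, with TMM factors) in ES and iPS cells. The 4 progenitor genes Ncan, Nes, Olig1 and Olig2 summed to 6986 and 8348 CPM in NPC and to 30.8 to 79.8 elsewhere. Summed feeder fibroblast markers (6 of 6) were 1202 and 1391 CPM in ES cells, 2743 and 2945 in iPS cells, 438 and 449 in ES cells in 2i, 907 and 921 in iPS cells in 2i, and 74.5 and 105 in NPC, where Col1a2 and Col3a1 were at 0 in replicate 1. Of the other cell types listed, 1 of 3 endothelial markers had a model (Kdr, 0.188 to 2.92 CPM) and 0 of 4 microglial ones. The part of feeder cells in the differences below was not tested. Assigned reads ran from 1150624 to 17286063, fewest in NPC replicate 1.

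Of 32 far-side models of 28 symbols, 28 models of 26 symbols passed the filter on low counts. Between NPC and ES cells, 11 of these 28 were higher and 7 lower, 64.3%, against 61.0% of all 11031 models. In such cultures, fewer cells of a type and less RNA per cell cannot be told apart. The median log2 fold change of the far-side genes was 0.14 against -0.21 over all models. Of 7 chromatin, DNA and RNA factor genes, each taken by its model of highest mean, 4 rose and 0 fell. They were Bat1a, Zbtb12, Stk19 and Bat3. The shorter Bat1a model passed neither in NPC nor in iPS cells against ES cells. The rise of Bat3 rests on few reads, 28 and 3 in ES cells and 4 and 18 in NPC. They are those of its model from 35272837 to 35283298, which overlaps other Bat3 models. Bat1a (its longer model) had 17.01 and 21.6 CPM in ES cells, 37.7 and 46.6 in NPC, 43.1 and 35.9 in iPS cells, 19.3 and 19.9 in ES cells in 2i, and 28.7 and 27.2 in iPS cells in 2i. NPC and iPS cells in serum were above the other groups (log2 1.21 in NPC, SE 0.20, adjusted p from edgeR = 4.15e-06). Zbtb12, a zinc finger gene, went from 12.5 and 16.1 to 39.3 and 27.5, and was 0.35 in log2 above ES cells in iPS cells, which did not pass.

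Of 9 metabolism, membrane and signalling genes, 5 rose and 2 fell in NPC, where 61.0% of all models were called. Abhd16a, a lipase of lysophosphatidylserine synthesis, had 28.9 and 40.03 CPM in ES cells, 34.6 and 41.4 in ES cells in 2i, 105 and 132 in NPC, 133 and 105 in iPS cells, and 61.1 and 57.7 in iPS cells in 2i. NPC and iPS cells did not overlap the others (log2 1.86 in NPC, SE 0.18, adjusted p from edgeR = 1.08e-10). Clic1, which encodes an intracellular chloride channel protein, went from 125 and 141 to 335 and 365, a log2 fold change of 1.40. Agpat1, an acyltransferase of phosphatidic acid synthesis, went from 4.66 and 3.42 to 17.6 and 22.0, 2.24. Neu1, the lysosomal sialidase, and Rnf5, a ubiquitin ligase of the endoplasmic reticulum, rose by 0.84 and 0.56. Fkbpl fell by 0.70.

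Slc44a4 was the other gene of that list that fell. It had 12.2 and 19.5 CPM in ES cells, 20.2 and 20.7 in ES cells in 2i, 6.80 and 7.83 in iPS cells, 28.1 and 27.1 in iPS cells in 2i, and no count in either NPC library. The NPC libraries were the lowest and iPS cells in 2i the highest. Slc44a4 was at least 6.32-fold lower in NPC than in ES cells, taken against 3 counts in NPC replicate 1, which are 2.51 CPM. The fragment at its start had high contact sums in NPC and iPS cells and low ones in ES cells in serum, where it was low in ligations between regions too.

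**Figure D5:**
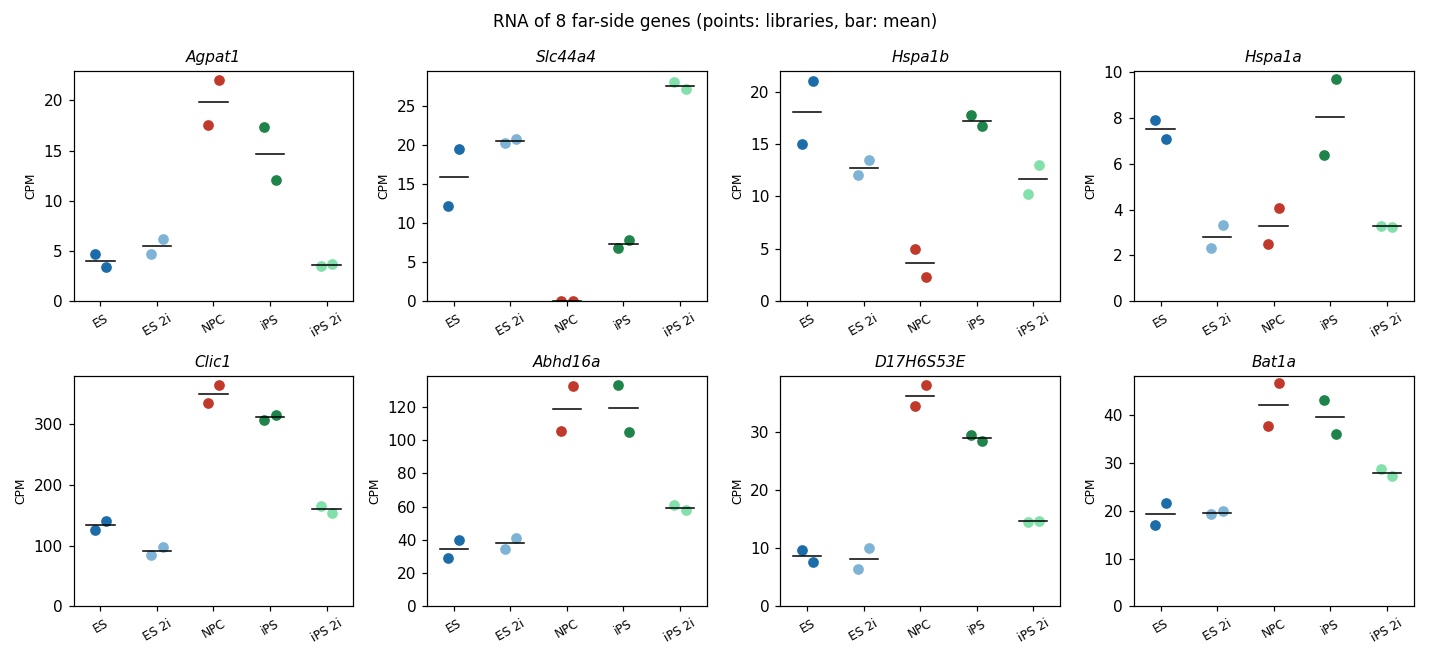
RNA levels in CPM (y axis, from 0) of 8 far-side genes by group (x axis); points are libraries and bars are means of 2. Agpat1, Clic1, Abhd16a, D17H6S53E and Bat1a (longer model) are high in NPC and in iPS cells in serum and lower in iPS cells in 2i. Slc44a4 has no count in NPC and 28.1 and 27.1 CPM in iPS cells in 2i.

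The HSP70 genes and complement C2 were lower in NPC. Hspa1b and Hspa1a encode the stress-inducible HSP70 chaperone, are near-identical copies, and may share reads. Hspa1b had 15.0 and 21.1 CPM in ES cells, 12.03 and 13.4 in ES cells in 2i, 5.02 and 2.32 in NPC, 17.7 and 16.7 in iPS cells, and 10.2 and 12.99 in iPS cells in 2i. NPC were the lowest group (log2 -2.49, SE 0.37, adjusted p from edgeR = 8.37e-07). Hspa1a went from 7.91 and 7.11 to 2.51 and 4.06 (log2 -1.08). C2, a protease of the classical complement pathway, had 4.27 and 5.27 CPM in ES cells and 0.00 and 1.45 in NPC. The NPC values of these genes rest on few reads, 6 and 8 for Hspa1b, 3 and 14 for Hspa1a, and 0 and 5 for C2. 1110038B12Rik (its model from 35088690 to 35089416) and Snord52 were also lower, by log2 of -0.76 and -0.79. Another 1110038B12Rik model, from 35087181 to 35089416, overlaps both, so reads may be shared. D17H6S53E rose by 2.02 and Nfkbil1, the 1 tested gene of the tumour necrosis factor list, by 0.97. No gene of the class II list and 1 of the Ly6 family was tested.

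In iPS cells against NPC, 8 of 28 models were higher and 2 lower, 35.7%, against 51.3% of all. Both HSP70 genes rose (Hspa1b by 2.48 and Hspa1a by 1.17 in log2), as did Slc44a4, at least 2.91-fold, Pbx2 by 0.95, Lsm2, a U6 snRNP protein gene, by 1.00, 1110038B12Rik by 1.26 and Snord52 by 1.58. Ly6g6d passed at 0.00 and 0.58 CPM in NPC against 2.27 and 3.92. Rnf5 fell by 1.44 and Zbtb12 by 0.86. Abhd16a, Clic1, Agpat1 and Neu1 differed by -0.02, -0.17, -0.48 and -0.07 in log2, and did not pass. Against ES cells, 14 models were higher and 3 lower in iPS cells, 60.7%, against 52.9% of all. Abhd16a was higher by 1.84, Agpat1 by 1.76, D17H6S53E by 1.68, Nfkbil1 by 1.30 and Clic1 by 1.23 in log2. The 3 lower ones were Slc44a4 (-1.02), C2 (-1.53) and Rnf5 (-0.88).

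In 2i, ES cells had 1 higher and 6 lower models than in serum, 25%, against 24.5% of all. The higher one was the shorter of 2 Bat1a models, by 0.68, while the longer one had 0.07. The lower ones were C2 (-1.87), Hspa1a (-1.44), Fkbpl (-0.83), Neu1 (-0.81), Rnf5 (-0.64) and Clic1 (-0.55). iPS cells had 1 higher and 10 lower models in 2i, 39.3%, against 42.6% of all. Slc44a4 rose by 1.90, from 6.80 and 7.83 to 28.1 and 27.1 CPM. Agpat1 fell by 2.02, Vars, the valyl-tRNA synthetase gene, by 1.33, Hspa1a by 1.31, Abhd16a by 1.005, D17H6S53E by 0.98, Clic1 by 0.96 and Neu1 by 0.93. In 2i, iPS cells had 8 models above ES cells and 1 below, 32.1%, against 25.3% of all, among them D17H6S53E by 0.84, Clic1 by 0.82, Nfkbil1 by 0.69 and Abhd16a by 0.64. Without ES in 2i replicate 1, that total of 9 was 4.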

How the data were processed

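5C and RNA-seq were read in 5 groups of 2 libraries each. The authors deposited raw counts per pair of 5C primers and per transcript model, and the submitters' processing notes name mm9, Bowtie, TopHat, TopHat2 2.1.0 and HTSeq. Whether RNA counting used strand is unknown, with settings not given in the sources used here. Binned 5C values that the authors deposited were read as log2, quantile-normalised and distance-corrected per the file headers. Coordinates are mm9, counted from 1.

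Counts of 75889 within-region pairs, 2216 tile pairs and 11031 models (44388 left out by filterByExpr) were fitted with edgeR 4.0.16 in R 4.3.3, all 10 libraries, group as the only term and 5 residual degrees of freedom. The biological coefficient of variation was 0.327, 0.132 and 0.117. 5C offsets were totals by library, region and 1 of 20 distance strata, and RNA used TMM. P-values were adjusted by Benjamini-Hochberg over all features, threshold 0.05. Shares were tested by exact permutation over libraries. Scripts were tested on simulated data. RNA reads in no model (26.5% to 86.6%) stayed out of library sizes. Alternatives were DESeq2 1.42.0, TMM without strata, no filter, a replicate block, each library left out, stratum medians, fragment balancing (10 rounds) and the within-region percent as covariate. The last 3 were added after the data were seen.

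Text names up to 4 pairs (mean of at least 50 counts) and 3 tile pairs per direction with the largest change and no overlap of the groups, the 4 fragments with most called pairs, up to 6 genes per comparison and genes starting on these. Members and lists were chosen with earlier results of these data known. The labels give no batch.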

Additional observations from a re-analysis of the deposited data

Results flagged for a closer look

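The effect of 2i differed between the lines, by a test of the difference itself (edgeR interaction term, iPS minus ES, adjusted over all features). It passed for 197 far-side pairs (3.16%, against 1.97% of all), 31 tile pairs (14.8%, against 8.39%) and 10 RNA models (35.7%, against 27.3%). The difference was positive for 53 pairs and negative for 144, and positive for 21 tile pairs and negative for 10. With stratum medians it was positive for 67 and negative for 102 pairs and positive for all 24 tile pairs that passed. With fragment balancing 0 pairs passed (edgeR, 398 at an unadjusted p under 0.05) and 3 tile pairs, all positive. Over all regions, 3 pairs and 7 tile pairs passed with balancing. The 4 tile pairs named here all had positive differences. The tiles of 34.60 and 34.85 Mb differed by 1.36 in log2, from -1.06 in ES cells and 0.31 in iPS cells. Those of 34.50 and 34.85 Mb differed by 1.63 (-1.71 and -0.08), those of 34.50 and 34.60 Mb by 1.05 (-0.83 and 0.22) and those of 34.70 and 34.85 Mb by 0.94 (-0.77 and 0.17).

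Among genes, Agpat1 differed by -2.37 in log2 (0.34 in ES cells and -2.02 in iPS cells), Vars by -1.26, Abhd16a by -1.20, D17H6S53E by -0.84, Pbx2 by -0.60 and 1110038B12Rik by -0.59. C2 differed by 2.54 (-1.87 and 0.66), Slc44a4 by 1.45 (0.46 and 1.90) and Fkbpl by 0.99. For Bat1a the shorter model (35378691 to 35386815) differed by -0.71 (0.68 and -0.03). Summed feeder markers fell in 2i in both lines. Their part in these differences was not tested.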

How the results depend on the processing

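With 2 libraries a group, single pairs of few counts have wide errors, and far-side medians of log2 fold changes move with the scaling. Apart from leaving out libraries, direction and call held in 202 of 224 comparisons for named pairs, with 21 weaker and 1 turned, in 157 with 11 weaker for tile pairs, and in 170 with 25 weaker for genes. The turned one was Oct4_FOR_78 with Oct4_REV_136 in 2i, -0.24 with fragment balancing. That balancing gave 564, 0 and 21 called pairs for NPC, iPS cells and ES cells in 2i against ES cells. For the last 2 it gave 23 and 48 tile pairs. Over all regions, it gave 5577, 9 and 174 pairs, and 83 and 250 tile pairs. Stratum medians gave 74 tile pairs for iPS cells against NPC and 31 against ES cells, and TMM 26 for the latter. For iPS cells in 2i against serum, where edgeR called 0, no filter gave 2 pairs, DESeq2 38 pairs and 19 tile pairs, TMM 10, balancing 18 and the covariate 5 tile pairs. DESeq2 gave 2 tile pairs for iPS against ES cells in 2i.

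Replicate numbers were not taken to pair the libraries: the correlation of deviations was -0.0856 to 0.254 and passed 0.1 in 3 of 10 pairings of groups. The within-region percent was nonetheless 90.6 to 92.0 in replicate 1 of ES cells in 2i, iPS cells and iPS cells in 2i and 82.4 to 83.8 in their replicate 2. With a replicate block, called pairs were 1565, 643, 578, 1203, 2 and 0 in the order NPC against ES, iPS against NPC, iPS against ES, ES in 2i against ES, iPS in 2i against iPS and iPS against ES in 2i, tile pairs 124, 126, 57, 103, 17 and 0, and RNA models 17, 10, 16, 7, 10 and 9.

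Leaving out 1 library at a time gave, in the same order, 630 to 1377, 126 to 509, 122 to 551, 308 to 1170, 0 to 2 and 0 to 0 called pairs. For tile pairs it gave 85 to 121, 74 to 123, 4 to 52, 44 to 92, 0 to 4 and 0 to 0. Called RNA models for iPS against ES cells in 2i were 4 to 10. The iPS minus ES difference of the far-side share was -0.865 to 1.45 points and that of the share across the border -0.206 to 0.816. Without the pair of highest count, the far-side share in NPC differed by 0.148 and the share over 200 kb in 2i by -0.469. Over 20 kb only, the share across the border differed by 1.72 in NPC and by 0.203 in 2i. Causes were not tested.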
